A study of Arabidopsis thaliana with 18 samples.

Results

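The 47 genes described here are the nuclear genes of Arabidopsis thaliana for the light-harvesting antennae of photosystem II (LHCB) and photosystem I (LHCA), for the nuclear subunits of photosystem I (PSA) and photosystem II (PSB), for the small subunit of Rubisco (RBCS) and for Rubisco activase (RCA). They were chosen by name, from a list of loci, and make 47 of the 32399 loci in the count files. By complex they are 14 photosystem II antenna genes, 6 photosystem I antenna genes, 12 photosystem I subunits, 10 photosystem II subunits, 4 RBCS genes and RCA. All 47 loci were found in the reference annotation under symbols or synonyms that match these names. Together they held between 16.1% and 22.0% of all counted reads of a library.

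Messenger RNA was sequenced from whole seedlings 12 d old of wild type and of the alleles ros1-3 and ros1-4 of ROS1, which encodes a DNA glycosylase that removes 5-methylcytosine. Seedlings were kept in water for 6 h with 50 µM abscisic acid (ABA, the hormone of drought and seed dormancy) or with its solvent alone (mock). There were 6 groups of 3 libraries, each library from a pool of 5 plants. Replicates are biological per the labels, which leave unsaid whether pools were grown or treated apart, so p-values measure the spread between these pools. The labels do not name the accession of each line.

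Antenna proteins bind chlorophylls a and b and pass excitation energy to the reaction centres of the photosystems, whose core subunits are encoded in the plastid. The nuclear members are made in the cytosol and imported, and their genes are classic targets of light, sugar and plastid signals. Rubisco fixes carbon dioxide, joining small subunits from the nucleus to large subunits from the plastid, and Rubisco activase removes inhibitory sugar phosphates from its active sites. ABA is known as a signal that represses many genes of photosynthesis and that also regulates several LHCB genes.

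The 250 bases before the annotated start of 4 members are printed because these genes stand at the ends of the ABA response described further on: LHCB2.1 and LHCB1.1 were raised most in wild type, and RBCS1B and RBCS2B were lowered. The sequences are from RefSeq, build TAIR10.1, all from the minus strand and written 5′ to 3′. They lie at chr2:1824481-1824730 for LHCB2.1, chr1:10475970-10476219 for LHCB1.1, chr5:15385321-15385570 for RBCS1B and chr5:15382072-15382321 for RBCS2B. Capitals mark matches, on either strand, to the G-box CACGTG, the ABRE-like motif ACGTGGC, the I-box GATAAG or CCAATC.
LHCB2.1: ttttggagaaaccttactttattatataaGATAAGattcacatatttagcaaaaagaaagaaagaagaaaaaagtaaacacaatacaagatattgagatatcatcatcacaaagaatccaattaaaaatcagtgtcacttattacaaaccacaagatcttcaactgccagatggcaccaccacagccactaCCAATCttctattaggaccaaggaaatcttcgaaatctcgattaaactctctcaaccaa
LHCB1.1: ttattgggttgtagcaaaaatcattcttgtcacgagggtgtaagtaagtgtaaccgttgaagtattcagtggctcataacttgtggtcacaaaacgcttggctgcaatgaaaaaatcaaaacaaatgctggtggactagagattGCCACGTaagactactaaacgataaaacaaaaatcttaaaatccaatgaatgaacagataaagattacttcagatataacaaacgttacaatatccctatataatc
RBCS1B: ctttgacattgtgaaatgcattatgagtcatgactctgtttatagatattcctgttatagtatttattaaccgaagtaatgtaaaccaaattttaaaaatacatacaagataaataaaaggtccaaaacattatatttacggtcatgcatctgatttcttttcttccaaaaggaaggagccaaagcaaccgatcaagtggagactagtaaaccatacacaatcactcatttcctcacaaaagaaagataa
RBCS2B: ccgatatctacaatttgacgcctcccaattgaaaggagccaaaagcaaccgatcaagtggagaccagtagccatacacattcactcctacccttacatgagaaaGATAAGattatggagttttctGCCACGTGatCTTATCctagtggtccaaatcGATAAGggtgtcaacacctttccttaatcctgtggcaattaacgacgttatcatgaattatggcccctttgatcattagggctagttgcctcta

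The G-box is bound by bZIP and bHLH factors, the ABRE-like motif belongs to elements bound by ABA-responsive bZIP factors, the I-box is known from light-regulated promoters, and CCAATC is a motif known from targets of GLK factors. G-box and ABRE-like matches can overlap, as they do in RBCS2B. In these windows, the G-box stood before 9 of the 47 genes (19.1%) against 6.49% of all 27443 gene starts, and the ABRE-like motif before 8 (17.0%) against 3.37%. The I-box stood before 11 genes (23.4%, against 12.3% of all) and CCAATC before 12 (25.5%, against 10.2%). Of the 12 genes with CCAATC, 7 were photosystem II antenna genes and 3 photosystem I antenna genes, and none of the 12 photosystem I subunits had it. RBCS1B had no match in its window. RBCS1A, RBCS1B and RBCS3B also have an annotated transcript start further inside the gene, by 243, 73 and 226 bases. The 250 bases before that inner start held I-boxes in all 3 genes, and a G-box and an ABRE-like motif in RBCS1A and RBCS3B. A match is a description of letters and does not show a bound site.

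**Figure D1:**
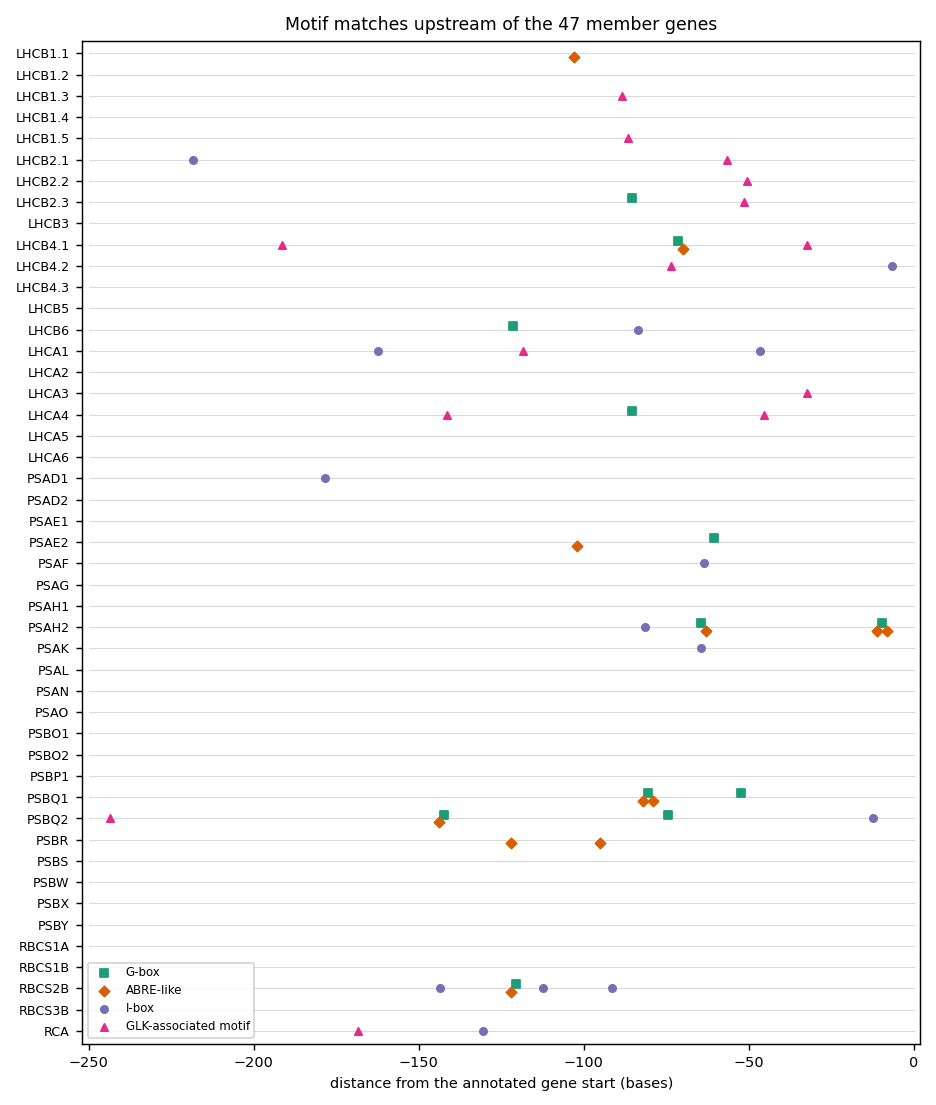
Positions of motif matches in the 250 bases before the annotated start of each of the 47 genes, in bases from the start, with 1 row per gene and 1 symbol per match. The GLK-associated motif is seen in 7 of 14 photosystem II antenna rows and in none of the 12 photosystem I subunit rows.

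Counted reads per library ranged from 3304038 to 10275773. ROS1, the mutated gene, was at 87.8 ± 6.17 CPM (counts per 1000000 counted reads after scaling; mean ± SD, n = 3) in wild type mock, 54.1 ± 3.30 in ros1-3 mock and 34.5 ± 3.57 in ros1-4 mock, and each allele lay below wild type in both treatments without overlap. The share of multiply aligned reads, which enter no gene's count, lay between 9.80% and 13.0% in wild type mock and between 6.32% and 11.4% under ABA, between 5.60% and 9.45% over both groups of ros1-3 and between 3.47% and 4.62% over both groups of ros1-4. All 5 ABA-response markers (ATHB7, ATHB12, ABI1, KIN1 and RD29A) rose in ABA in all 3 genotypes. The labelled tissue was the whole seedling, and none of 13 root markers and 5 guard cell markers was without counts in any group. Of 12 root markers tested, 9 fell and 1 (PYK10) rose with ABA in wild type. The summed level of the root markers without PYK10 in wild type lay between 175 and 246 CPM under mock and between 87.5 and 97.1 CPM under ABA. With PYK10 the sum was 821 to 1124 CPM and 1067 to 1211 CPM. The summed guard cell markers were at 84.9 to 86.2 CPM and 58.6 to 73.5 CPM. In ros1-3 and ros1-4, 7 of the 12 root markers fell, and PYK10 rose in ros1-4. Of the 5 guard cell markers, ABA lowered 2 in wild type. In ros1-3 it lowered 0 of them, and in ros1-4 it lowered 3 and raised 1. Without PYK10 the root marker sums of ros1-3 and ros1-4 lay at 152 to 194 CPM and 155 to 204 CPM under mock and at 86.0 to 97.6 CPM and 92.9 to 105 CPM under ABA. With PYK10 they were 995 to 1146 CPM and 854 to 963 CPM under mock, and 965 to 1121 CPM and 1057 to 1186 CPM under ABA. The guard cell sums of ros1-3 and ros1-4 were 72.7 to 104 CPM and 85.8 to 105 CPM under mock, and 78.7 to 87.9 CPM and 75.3 to 87.7 CPM under ABA. The part of these markers in the results on the photosynthesis genes was not tested. In whole seedlings a larger or smaller share of green cells and more or less RNA per green cell cannot be told apart.

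The authors' counts are per transcript model, with ambiguous reads kept in a row of their own. The level of a locus with several models may thus be understated. Its fold changes and calls rest only on the reads that could be assigned to 1 model. Ambiguous reads made 27.6% to 31.0% of a file's total, and 30.2% to 31.0% over both groups of ros1-4. How many reads of each locus went to that row was not measured. Several models are listed for 12 members: LHCA1, LHCA3, LHCA5, LHCB4.2, LHCB4.3, PSAN, PSBP1, PSBQ1, PSBS, RBCS1A, RBCS3B and RCA. RCA, known as an abundant leaf transcript, was counted at 4.43 to 11.4 CPM. PSBQ1 and RBCS3B did not pass the filter on low counts, so 45 members were tested. Among the 35 members with 1 model, levels per kilobase of transcript in wild type mock ran from 27300 CPM per kilobase for LHCB1.5 and 20210 for LHCB1.3 down to 164 for LHCB2.3 and 65.6 for LHCA6. Some of them overlap another annotated gene, among them LHCB1.3, LHCB1.5, LHCB2.3, LHCB3, LHCA4 and PSBR. Reads in such overlaps may also have been set aside as ambiguous, which was not measured.

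Under ABA the summed antenna and RBCS levels moved in opposite directions. In wild type the summed level of the 14 photosystem II antenna genes was 86602 ± 12630 CPM in mock and 120960 ± 10130 CPM in ABA (SD, n = 3), a ratio of 1.4, while the summed RBCS genes were at 13083 ± 660 CPM and 7826 ± 278 CPM, a ratio of 0.598. In both sums, no ABA library overlapped the mock libraries. The ratios were 1.36 and 0.596 in ros1-3 and 1.37 and 0.618 in ros1-4, again with no overlap. RBCS1A, a locus with several models that changed least of the tested RBCS genes, may be understated in the RBCS sums. How far this moved the RBCS ratios was not measured. The photosystem I antenna had ratios of 1.23, 1.23 and 1.18 in wild type, ros1-3 and ros1-4, and the photosystem II subunits a ratio of 1.21 in each genotype. For both of these sums the groups did not overlap in wild type and ros1-3 but did in ros1-4. In the photosystem I antenna sum of wild type mock (14536 CPM), LHCA2 and LHCA4 were at 7305 and 7090 CPM. LHCA1, LHCA3 and LHCA5, loci with several models, were at 3.74, 53.3 and 7.66 CPM and may be understated there. So may PSBP1, PSBQ1 and PSBS in the photosystem II subunit sum, at 12.6, 0.80 and 1.56 CPM in wild type mock. The photosystem I subunits had ratios of 1.16, 1.13 and 1.11 with overlapping groups in all 3 genotypes.

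**Figure D2:**
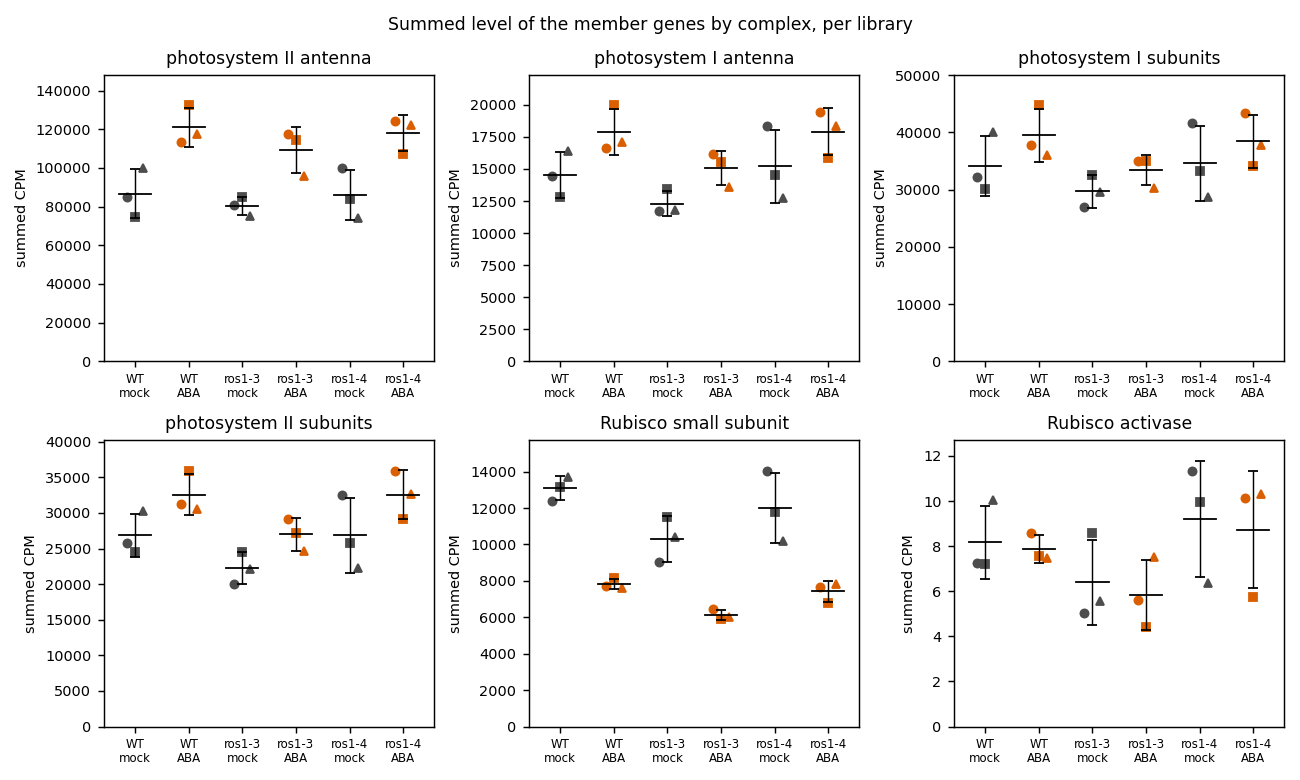
Summed CPM of the members of each complex (vertical axis, from 0) in each of the 18 libraries, by genotype and treatment (grey mock, orange ABA; circle, square and triangle are replicates 1, 2 and 3). Lines and bars are the mean and SD of 3 libraries; the photosystem II antenna is higher in every ABA library than in any mock library of its genotype, and the Rubisco small subunit lower.

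Member by member, 16 of 45 tested genes rose and 3 fell with ABA in wild type (adjusted p under 0.05, edgeR's quasi-likelihood test with Benjamini-Hochberg adjustment over 15853 genes). Over all tested genes 20.0% rose and 18.5% fell. The members' median log2 fold change was 0.28 against -0.01 over all genes tested. In ros1-3, 9 rose and 2 fell (background 19.7% and 18.5%), with a median of 0.24 against -0.02 over all genes. In ros1-4, 11 rose and 2 fell (background 19.8% and 18.4%), with a median of 0.20 against -0.01. The share of members that rose, 35.6% in wild type, was thus near the background in ros1-3 (20.0%) and ros1-4 (24.4%), and the share that fell lay below it in each genotype (6.67%, 4.44% and 4.44%). Among the photosystem II antenna genes alone, 71.4%, 57.1% and 64.3% rose. The ABA comparisons of the 3 genotypes share no library. The same 9 genes rose in all 3 genotypes, 8 of them photosystem II antenna genes (LHCB1.1, LHCB1.3, LHCB1.4, LHCB1.5, LHCB2.1, LHCB2.2, LHCB2.3 and LHCB4.3) and the last PSBO2. RBCS1B and RBCS2B fell in all 3.

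The count of members that rose moved with single libraries and with the share of multiply aligned reads. Without wild type ABA replicate 2 it was 7 in wild type, without wild type mock replicate 2 it was 8, and with the share of multiply aligned reads as a covariate it was 4 (LHCB1.1, LHCB1.3, LHCB1.4 and LHCB2.1). In ros1-4 it was 22 without mock replicate 1, 7 without mock replicate 2 and 6 without mock replicate 3, and in ros1-3 it was 6 without ABA replicate 1. Scaling by total counted reads, without TMM factors (edgeR's scaling for composition), shifted the median over all genes by -0.12, -0.14 and -0.15 in wild type, ros1-3 and ros1-4. Then 15.2% of all genes rose and 25.4% fell in wild type, and of the members 12 rose and 4 fell in wild type, 8 and 3 in ros1-3 and 8 and 4 in ros1-4. Over all genes 14.6% rose and 26.5% fell in ros1-3 under that scaling, and 13.8% and 27.4% in ros1-4, so the members that rose in the alleles were near the share over all genes and those that fell were below it. Without TMM factors the sign turned for 2, 6 and 8 members, all of them uncalled.

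**Figure D3:**
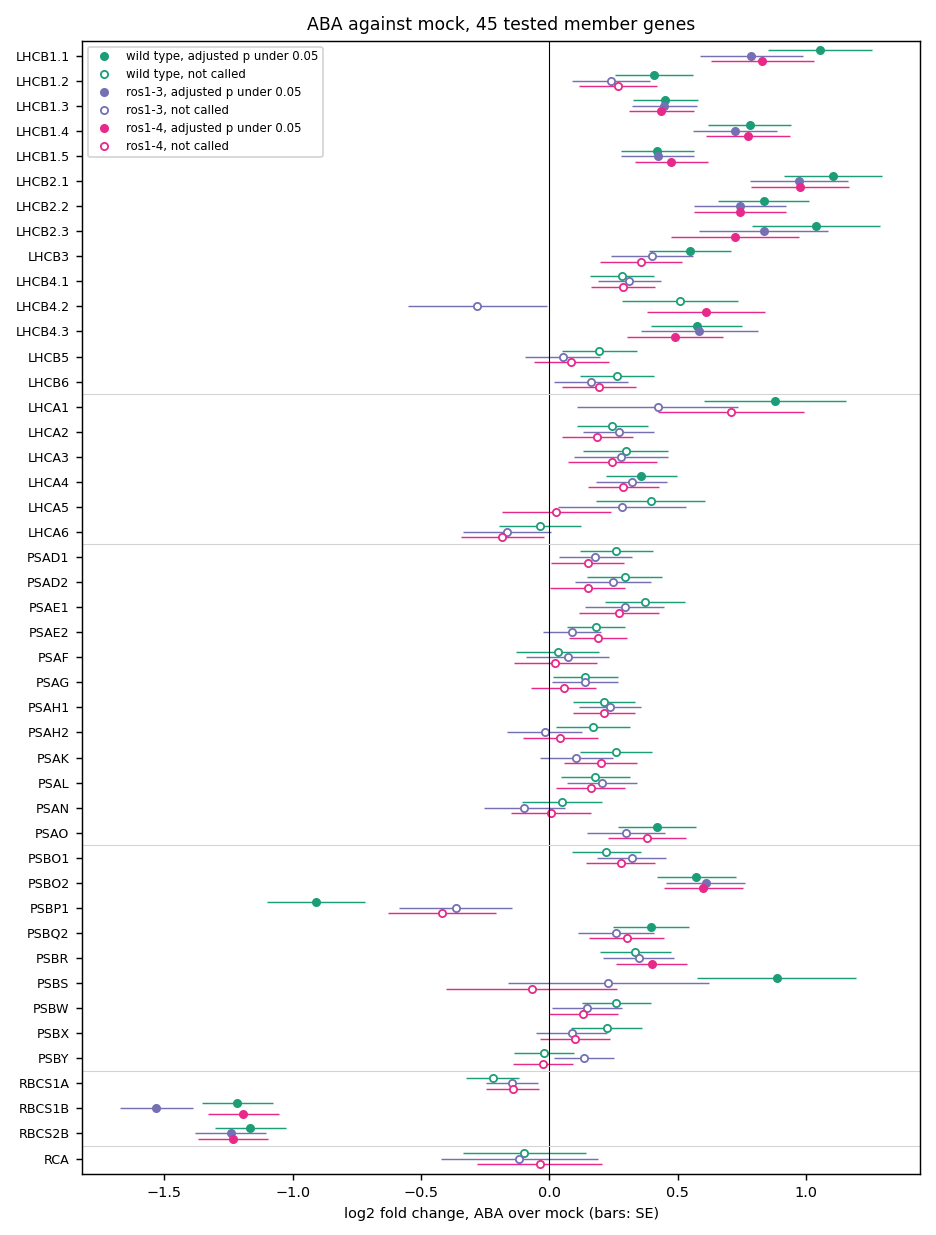
Log2 fold change of ABA over mock for the 45 tested members (rows, grouped by complex) in wild type, ros1-3 and ros1-4; bars are the SE, and filled symbols mark an adjusted p under 0.05. The filled symbols to the right are mostly photosystem II antenna genes, and RBCS1B and RBCS2B lie near or below -1.2 in each genotype.

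Of the 14 photosystem II antenna genes, 10 rose in wild type, none fell and 4 did not pass the test, with a median log2 fold change of 0.53. The trimeric light-harvesting complex II is built from LHCB1, LHCB2 and LHCB3 proteins, and LHCB2 is known for its part in state transitions. LHCB2.1 (AT2G05100, chr2:1822990-1824480, minus strand, 2 exons) had the smallest p among them. Its level in wild type was 986, 622 and 1284 CPM in mock replicates 1, 2 and 3 and 1959, 2621 and 1657 CPM in ABA replicates 1, 2 and 3. In ros1-3 it was 1158, 1099 and 1062 CPM in mock and 2349, 2182 and 1987 CPM in ABA. In ros1-4 it was 1199, 952 and 842 CPM in mock and 1969, 1756 and 2170 CPM in ABA. Every ABA library lay above every mock library of its genotype, and wild type ABA replicate 2 was the highest of all. The log2 fold changes were 1.11 ± 0.19 (SE, edgeR adjusted p = 7.34e-05) in wild type, 0.97 ± 0.19 (adjusted p = 0.000309) in ros1-3 and 0.98 ± 0.19 (adjusted p = 0.000295) in ros1-4.

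LHCB2.2 rose by a log2 fold change of 0.84, 0.74 and 0.74 in wild type, ros1-3 and ros1-4, and LHCB2.3 by 1.04, 0.84 and 0.72. Without wild type ABA replicate 2 the LHCB2.3 value in wild type was 0.64, still past the test. In ros1-4 its call was lost in DESeq2 and in 4 of 6 fits without a library (mock replicates 2 and 3, ABA replicates 1 and 3), and in ros1-3 without ABA replicate 1. LHCB2.1 and LHCB2.2 are near-copies in part of their length: 22.7% and 28.2% of their 50-base windows occur more than once in the reference genome, and reads of such windows cannot be assigned to 1 site. The ratio of LHCB2.1 to LHCB2.2 counts in wild type lay between 0.556 and 0.657 under mock and between 0.739 and 0.756 under ABA. The ranges were 0.640 to 0.695 under mock and 0.778 to 0.821 under ABA for ros1-3, while ros1-4 had 0.578 to 0.615 and then 0.700 to 0.713. In each genotype the ratio was higher in every ABA library than in any mock library.

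The 5 LHCB1 copies form 2 clusters, LHCB1.1, LHCB1.2 and LHCB1.3 on chromosome 1 and LHCB1.4 and LHCB1.5 on chromosome 2. Their coding sequences are 86.7% to 96.4% identical to each other, and 10.7% to 20.5% of their 50-base windows recur elsewhere, so small differences between the copies are uncertain. LHCB1.1 (AT1G29920, chr1:10474656-10475969, minus strand, 1 exon) was at 1702, 1075 and 2045 CPM in wild type mock and at 2766, 4446 and 2811 CPM in wild type ABA. In ros1-3 it was at 2142, 1753 and 1863 CPM in mock and 3664, 3316 and 2959 CPM in ABA. In ros1-4 its values were 1963, 1583 and 1332 CPM in mock and 2620, 2657 and 3397 CPM in ABA. The groups did not overlap in any genotype. Its log2 fold changes were 1.06 ± 0.20 (edgeR adjusted p = 0.000218), 0.79 ± 0.20 (adjusted p = 0.00327) and 0.83 ± 0.20 (adjusted p = 0.00213) in wild type, ros1-3 and ros1-4.

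LHCB1.3, the copy with the highest level of the chromosome 1 cluster, was at 23950, 22720 and 27900 CPM in wild type mock and 31830, 35710 and 34450 CPM in wild type ABA. Its ros1-3 libraries were at 23910, 24000 and 22110 CPM in mock and 33140, 34200 and 28160 CPM in ABA, and in ros1-4 at 28740, 24880 and 23020 CPM and 35410, 32240 and 36060 CPM. The groups did not overlap in any genotype, and the log2 fold changes were 0.45, 0.45 and 0.44. LHCB1.2 was at 4077, 3133 and 4553 CPM in wild type mock and 4462, 6410 and 4753 CPM in wild type ABA, where mock replicate 3 lay above ABA replicate 1. Its ros1-3 libraries were at 5639, 4496 and 4753 CPM and 6431, 5817 and 5360 CPM, and in ros1-4 at 4824, 4039 and 3870 CPM and 4807, 4693 and 5830 CPM. Its log2 fold change of 0.41 passed the test in wild type, and the values of 0.24 and 0.27 in ros1-3 and ros1-4 did not. The wild type value was 0.23 without ABA replicate 2 and 0.27 without mock replicate 2, and neither passed. The call was also lost without mock replicate 1, without TMM factors, in the fit that holds the share of multiply aligned reads and in the fit of only the groups compared.

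LHCB1.4 was at 7492, 6117 and 9491 CPM in wild type mock and 12160, 13890 and 13640 CPM in wild type ABA. Its levels were 7160, 8097 and 5874 CPM and then 12660, 12650 and 9611 CPM in ros1-3, and 8308, 7754 and 6209 CPM and then 14190, 11130 and 12760 CPM in ros1-4. The log2 fold changes were 0.78, 0.73 and 0.77, with no overlap of groups. LHCB1.5, the member with the highest level per kilobase, was at 28090, 25030 and 32470 CPM in wild type mock and 36350, 41280 and 36990 CPM in wild type ABA. The ros1-3 libraries were at 24440, 26810 and 22860 CPM and 36130, 34400 and 28740 CPM, and in ros1-4 at 30510, 25540 and 22230 CPM and 38960, 33190 and 36700 CPM. Its log2 fold changes of 0.42, 0.42 and 0.48 were smaller than those of its neighbour LHCB1.4. Its call was lost in 3 of 6 fits without a library in wild type (mock replicates 1 and 2, ABA replicate 2), in 4 of 6 in ros1-3 (mock replicates 1 and 3, ABA replicates 1 and 2) and without mock replicate 3 in ros1-4. The ratio of LHCB1.4 to LHCB1.5 counts was 0.244 to 0.304 over the mock libraries of all genotypes against 0.334 to 0.369 over the ABA libraries, with no overlap.

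The minor antenna proteins LHCB4, LHCB5 and LHCB6 link the trimers to the photosystem II core. LHCB4.3 rose in all 3 genotypes, by 0.57, 0.59 and 0.49 on the log2 scale, at a low level, which in wild type lay between 9.51 and 12.1 CPM under mock and between 12.6 and 19.9 CPM under ABA. The wild type value was 0.37 without ABA replicate 2, where the call was lost, as it was without mock replicate 3. The LHCB4.3 call was kept in 1 of 6 fits without a library in ros1-3 (without mock replicate 3) and in 2 of 6 in ros1-4 (without mock replicate 1 or ABA replicate 2), and DESeq2 and the scaling without TMM factors did not make it in either allele. LHCB4.1, LHCB5 and LHCB6 did not pass the test in any genotype, with log2 fold changes of 0.28, 0.19 and 0.27 in wild type. LHCB3 rose in wild type (0.55), a call lost without mock replicate 2 or ABA replicate 2, and its values of 0.40 and 0.36 in ros1-3 and ros1-4 did not pass. LHCB4.2, counted at 3.53 to 9.23 CPM over all libraries, passed in ros1-4 (0.61) but not in wild type (0.51) or ros1-3 (-0.28). The ros1-4 call was lost in DESeq2, without TMM factors, without mock replicate 2 or 3 and without ABA replicate 3 (0.37).

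**Figure D4:**
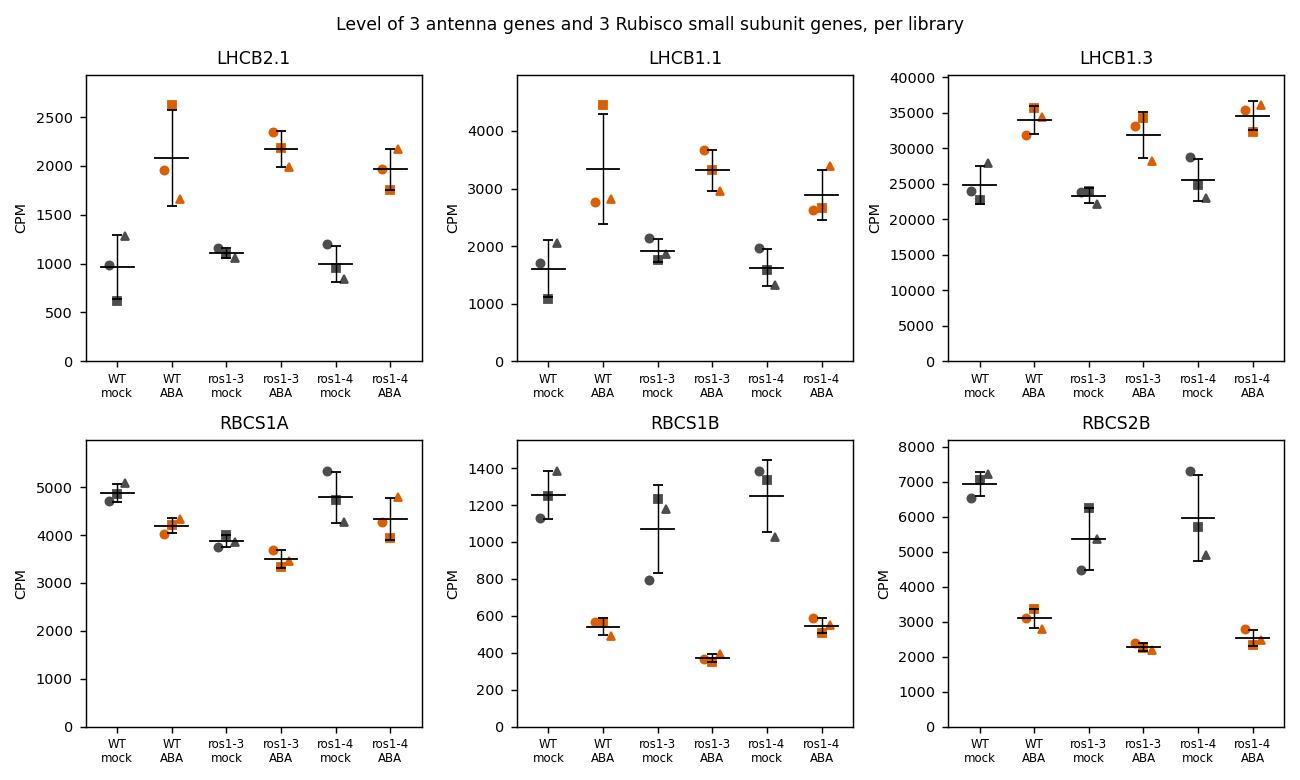
Levels in CPM (vertical axis, from 0) of 3 antenna genes and 3 RBCS genes in each of the 18 libraries (grey mock, orange ABA; circle, square and triangle are replicates 1, 2 and 3; lines and bars are the mean and SD of 3 libraries). LHCB2.1, LHCB1.1 and LHCB1.3 are higher in every ABA library of a genotype than in its mock libraries, RBCS1B and RBCS2B lower, and RBCS1A moves least.

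Of the 6 photosystem I antenna genes, LHCA1 and LHCA4 rose in wild type and none passed the test in ros1-3 or ros1-4. LHCA1, a locus with 4 models, was at 4.51, 1.85 and 4.87 CPM in wild type mock and 7.11, 8.91 and 5.69 CPM in wild type ABA (log2 fold change 0.88 ± 0.28, edgeR adjusted p = 0.0146). This call was lost without mock replicate 2 or ABA replicate 2. It was at 5.46, 5.79 and 3.35 CPM and 6.33, 7.53 and 5.96 CPM in ros1-3, and at 5.77, 4.36 and 3.18 CPM and 7.56, 5.38 and 8.39 CPM in ros1-4. Its groups overlapped in ros1-4 alone, and the log2 fold changes of 0.42 and 0.71 in the alleles did not pass. LHCA4, with 1 model and 6062 to 8002 CPM in wild type mock, rose by 0.36 in wild type, a call kept in 2 of 6 fits without a library (without mock replicate 3 or ABA replicate 1). Its values of 0.32 and 0.29 in the alleles did not pass. LHCA2 and LHCA3 had log2 fold changes of 0.25 and 0.30 in wild type. LHCA5 and LHCA6, which are known to join photosystem I to the NDH complex, had values of 0.40 and -0.04, and none of these 4 genes passed.

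Of the 12 photosystem I subunits, PSAO rose in wild type and none passed in ros1-3 or ros1-4. All 12 had a log2 fold change above 0 in wild type, with a median of 0.20. PSAO, a subunit on the side where the light-harvesting complex II docks, was at 2984, 2578 and 3702 CPM in wild type mock and 3855, 4835 and 3715 CPM in wild type ABA. It was at 2683, 3194 and 2906 CPM and 3807, 3733 and 3263 CPM in ros1-3, and at 3804, 2955 and 2531 CPM and 4671, 3736 and 3676 CPM in ros1-4. The lowest wild type ABA library lay just above the highest mock library, and in ros1-4 the groups overlapped. Its log2 fold changes were 0.42 ± 0.15 (edgeR adjusted p = 0.0325), 0.30 ± 0.15 (adjusted p = 0.131) and 0.38 ± 0.15 (adjusted p = 0.0537). The wild type call was lost without mock replicate 1, mock replicate 2 or ABA replicate 2. Without TMM factors PSAF and PSAN turned below 0 in wild type. The subunits that bind ferredoxin, PSAD1, PSAD2, PSAE1 and PSAE2, had values of 0.26, 0.29, 0.37 and 0.18 in wild type and did not pass. PSAF, which binds plastocyanin, had a value of 0.03.

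Of the 9 tested photosystem II subunits, PSBO2, PSBQ2 and PSBS rose and PSBP1 fell in wild type. PSBO, PSBP and PSBQ form the oxygen-evolving complex at the lumenal side, and PSBS is the sensor of non-photochemical quenching. PSBO2, the copy of the manganese-stabilizing protein with the lower level per kilobase, was at 1050, 936 and 1219 CPM in wild type mock and 1613, 1789 and 1363 CPM in wild type ABA. It was at 777, 1075 and 866 CPM and 1526, 1369 and 1251 CPM in ros1-3, and at 1208, 938 and 762 CPM and 1654, 1277 and 1476 CPM in ros1-4. In each genotype the groups did not overlap. The log2 fold changes were 0.57 ± 0.15 (edgeR adjusted p = 0.00509), 0.61 ± 0.16 (adjusted p = 0.00327) and 0.60 ± 0.15 (adjusted p = 0.00363). PSBO1, at 6798 to 8011 CPM in wild type mock, had values of 0.22, 0.32 and 0.28 and did not pass. The ratio of PSBO2 to PSBO1 counts in wild type lay between 0.136 and 0.155 under mock and between 0.169 and 0.205 under ABA, and it was likewise higher in the ABA libraries of both alleles without overlap.

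PSBP1 has 2 models and overlaps 2 other genes, and was counted at a low level. In wild type it was at 12.5, 12.5 and 12.7 CPM in mock and 5.96, 8.45 and 5.84 CPM in ABA. In ros1-3 it was 6.93, 12.1 and 11.7 CPM in mock and 7.31, 7.31 and 8.83 CPM in ABA, and in ros1-4 7.17, 10.9 and 8.41 CPM and 6.70, 6.12 and 6.71 CPM. The groups overlapped in ros1-3 alone. Its log2 fold change of -0.91 ± 0.19 passed in wild type (edgeR adjusted p = 0.000604), and -0.36 and -0.42 in ros1-3 and ros1-4 did not, although ros1-4 passed without TMM factors (-0.57). The differences from wild type in this response, 0.54 ± 0.29 and 0.49 ± 0.29, did not pass either (edgeR adjusted p = 0.994 and 1.0). PSBS, whose wild type level lay between 1.44 and 1.75 CPM under mock and between 2.85 and 2.87 CPM under ABA, had a lower level still, and its call in wild type was kept in 1 of 6 fits without a library (without mock replicate 1). PSBQ2 rose by 0.40 in wild type, a call lost without mock replicate 1, mock replicate 2 or ABA replicate 2. PSBR rose in ros1-4 by 0.40, a call lost without mock replicate 2, mock replicate 3 or ABA replicate 1, and its values of 0.34 and 0.35 in wild type and ros1-3 did not pass. PSBW, PSBX and PSBY did not pass in any genotype.

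Of the 3 tested RBCS genes, RBCS1B and RBCS2B fell with ABA in all 3 genotypes, and RBCS1A did not pass the test in any. RBCS1B, RBCS2B and RBCS3B lie side by side on chromosome 5, and RBCS1A lies apart on chromosome 1. RBCS1B and RBCS2B are 97.3% identical in coding sequence and RBCS1A is 87.7% to 90.1% identical to the 3 others. Of the 50-base windows of RBCS1B and RBCS2B, 11.5% and 15.2% recur elsewhere, and none of RBCS1A.

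RBCS1B (AT5G38430, chr5:15383167-15385320, minus strand, 3 exons) was at 1129, 1249 and 1386 CPM in wild type mock and 568, 565 and 488 CPM in wild type ABA. In ros1-3 it was at 794, 1233 and 1177 CPM in mock and 366, 350 and 393 CPM in ABA. In ros1-4 its level was 1387, 1338 and 1026 CPM in mock and 588, 504 and 549 CPM in ABA. In each genotype the highest ABA library lay below the lowest mock library. Its log2 fold change was -1.22 ± 0.14 in wild type (edgeR adjusted p = 3.2e-07), -1.53 ± 0.14 in ros1-3 (adjusted p = 1.36e-08) and -1.19 ± 0.14 in ros1-4 (adjusted p = 4.93e-07).

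RBCS2B (AT5G38420, chr5:15380907-15382071, minus strand, 3 exons) was at 6553, 7040 and 7233 CPM in wild type mock and 3108, 3368 and 2804 CPM in wild type ABA. The ros1-3 libraries were at 4469, 6261 and 5364 CPM and 2388, 2237 and 2178 CPM, and in ros1-4 at 7324, 5697 and 4902 CPM and 2798, 2344 and 2484 CPM. Again no group pair overlapped, and ros1-3 mock replicate 1 was the lowest mock library. The log2 fold changes were -1.17 ± 0.14 (edgeR adjusted p = 5.21e-07), -1.24 ± 0.14 (adjusted p = 2.31e-07) and -1.23 ± 0.14 (adjusted p = 2.79e-07) in wild type, ros1-3 and ros1-4.

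RBCS1A, a locus with 2 models, was at 4706, 4869 and 5084 CPM in wild type mock and 4028, 4211 and 4340 CPM in wild type ABA. It was at 3749, 4001 and 3864 CPM and 3699, 3333 and 3466 CPM in ros1-3, and at 5350, 4729 and 4284 CPM and 4277, 3934 and 4797 CPM in ros1-4. ABA libraries lay below mock libraries without overlap in wild type and ros1-3, and overlapped them in ros1-4. Its log2 fold changes of -0.22 ± 0.10, -0.15 ± 0.10 and -0.14 ± 0.10 did not pass (edgeR adjusted p = 0.0942, 0.283 and 0.294). Without TMM factors RBCS1A passed as lower in all 3 genotypes, at -0.34, -0.28 and -0.29. RBCS3B was counted at 0 to 0.840 CPM and was not tested.

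The make-up of the counted RBCS reads differed between treatments. RBCS1A made 34.8% to 42.0% of them in the 9 mock libraries and 51.7% to 61.3% in the 9 ABA libraries, a share of counts that is not corrected for length or for reads set aside. The ratio of RBCS2B to RBCS1A counts in wild type lay between 1.39 and 1.45 under mock and between 0.646 and 0.800 under ABA, and in both alleles too the treatments did not overlap. The ratio of RBCS1B to RBCS2B counts in wild type lay between 0.172 and 0.192 under mock and between 0.168 and 0.183 under ABA, with overlap. RCA had log2 fold changes of -0.10, -0.12 and -0.04, and did not pass.

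Other lists of photosynthesis genes, chosen with earlier results of these data known, held genes that rose and genes that fell. Over all tested genes 20.0% rose and 18.5% fell in wild type, 19.7% and 18.5% in ros1-3, and 19.8% and 18.4% in ros1-4. In wild type the counts for chlorophyll synthesis lay near these shares, and whether any list differed from them was not tested. Of 13 tested Calvin cycle genes, 1 rose in wild type (CP12-2, a regulator of the cycle, 0.40) and 2 fell (sedoheptulose-bisphosphatase SBPASE, -0.45, and ribose-5-phosphate isomerase RPI3, -0.47). In ros1-3, 5 fell (RPI3, SBPASE, GAPB, TKL1 and CFBP1, at -0.59, -0.40, -0.45, -0.40 and -0.50) and none rose. In ros1-4, 3 fell (RPI3, SBPASE and GAPB, at -0.38, -0.37 and -0.36) and CP12-2 rose (0.38). Of 11 electron carrier and ATP synthase genes, PETE1, a plastocyanin, rose in wild type (0.39) and none fell. PETE1 was also the only one of them called in ros1-3 (0.33) and ros1-4 (0.38). Of 15 genes of chlorophyll synthesis, 3 rose in wild type (HEMA1, GUN4 and CAO, at 0.39, 0.44 and 0.93). There 3 fell (GSA1, CHLI1 and CHLI2, at -0.46, -0.25 and -0.30). CAO makes chlorophyll b, which the antenna proteins bind. Of these 15 genes 2 rose and 4 fell in ros1-3, and 3 rose and 4 fell in ros1-4. GUN4 did not pass in ros1-3 (0.24) or ros1-4 (0.33), and CAO passed in ros1-4 (1.09) but not in ros1-3 (0.44). Of 11 tested regulators, 3 rose in wild type (the plastid sigma factor SIG5, 1.94, and the phytochrome-interacting factors PIF4 and PIF3, 0.94 and 1.27). There 3 fell (the GATA factors CGA1 and GNC, -0.73 and -0.39, and SIG2, -0.29). Among the regulators 2 rose and 3 fell in ros1-3, and 2 rose and 2 fell in ros1-4. PIF3 was at 0.60 and 0.69 in these alleles and did not pass. Of 7 tested genes of antenna import, assembly and kinases, the chaperonin CPN60A1 fell in wild type (-0.74) and none rose. In ros1-3, 1 of these 7 genes rose and 1 fell, and in ros1-4 none rose and 1 fell. The median log2 fold changes of these 5 lists in wild type lay between -0.06 and 0.10. Of 10 plastid-encoded partner genes looked up by locus name, none was in the count files. Genes encoded in the plastid were therefore not analysed here.

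Over the 4 comparisons of an allele with wild type, 1 member passed the test, in 1 comparison. In mock, ros1-3 had no called member against wild type by edgeR (1.32% of all genes were called), with 11 members (24.4%) at an unadjusted p under 0.05, 10 of them lower (22.2%). Over all genes 12.2% were at such a p, and 6.55% were lower with one. DESeq2 called 2, LHCB4.1 (-0.42) and RBCS1A (-0.34). The log2 fold change was below 0 in 37 of 45 members, with a median of -0.18 against 0.01 over all genes, and 10 members were lower without overlap of libraries (background 8.31%). Without TMM factors 30 of 45 lay below 0, with a median of -0.09 against 0.10 over all genes. In ABA, 41 of 45 were below 0 in ros1-3, with a median of -0.23 against 0.00 over all genes, and 21 were lower without overlap (background 10.1%). By edgeR 14 members (31.1%) were at an unadjusted p under 0.05 in ABA, all of them lower. Over all genes 1948 of 15853 were at such a p, in either direction. Without TMM factors 38 of 45 lay below 0 in ABA, with a median of -0.15 against 0.075 over all genes. In both treatments the lower members without overlap included LHCB4.1, LHCB4.3, LHCA2, PSAL, PSAH1, PSBO1, PSBR, RBCS1A and RBCS2B. The multiply aligned share was lower in every ros1-3 mock library (6.53% to 9.45%) than in wild type mock (9.80% to 13.0%). Genotype and this share therefore cannot be told apart in mock, while in ABA the shares overlapped. With the share as a covariate 41 members in mock and 43 in ABA lay below 0. Within a group the members varied together from library to library, as described further on. Counts of members below 0 are therefore not counts of independent observations.

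RBCS1B was the single member called for ros1-3 against wild type in ABA (0.984% of all genes were called lower). Its 3 libraries at 350 to 393 CPM lay below the wild type libraries at 488 to 568 CPM, a log2 fold change of -0.55 ± 0.14 (edgeR adjusted p = 0.044). The call was lost in each of the 6 fits that left out 1 library of either group, and with the replicate number as a block (edgeR adjusted p = 0.0748). In mock the log2 fold change was -0.23 and did not pass.

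In ros1-4 no member was called against wild type in mock or in ABA by edgeR or by DESeq2, with 1 member at an unadjusted p under 0.05 in each treatment: PSBP1 in mock (-0.53) and RBCS2B in ABA (-0.28). This is 2.22% of the members, below the 6.91% and 8.16% of all genes at such a p. Over all genes 0.448% and 0.681% were called. Of the 45 members, 15 in mock and 26 in ABA were below 0, with medians of 0.05 and -0.03. Non-overlapping lower members numbered 1 in mock (background 5.87%) and 2 in ABA (background 6.76%). With the share of multiply aligned reads in the fit, 38 members in mock and 37 in ABA lay below 0. Every ros1-4 library had a lower share than any wild type library, so this fit cannot tell the share apart from genotype. The comparisons of both alleles use the same wild type libraries.

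**Figure D5:**
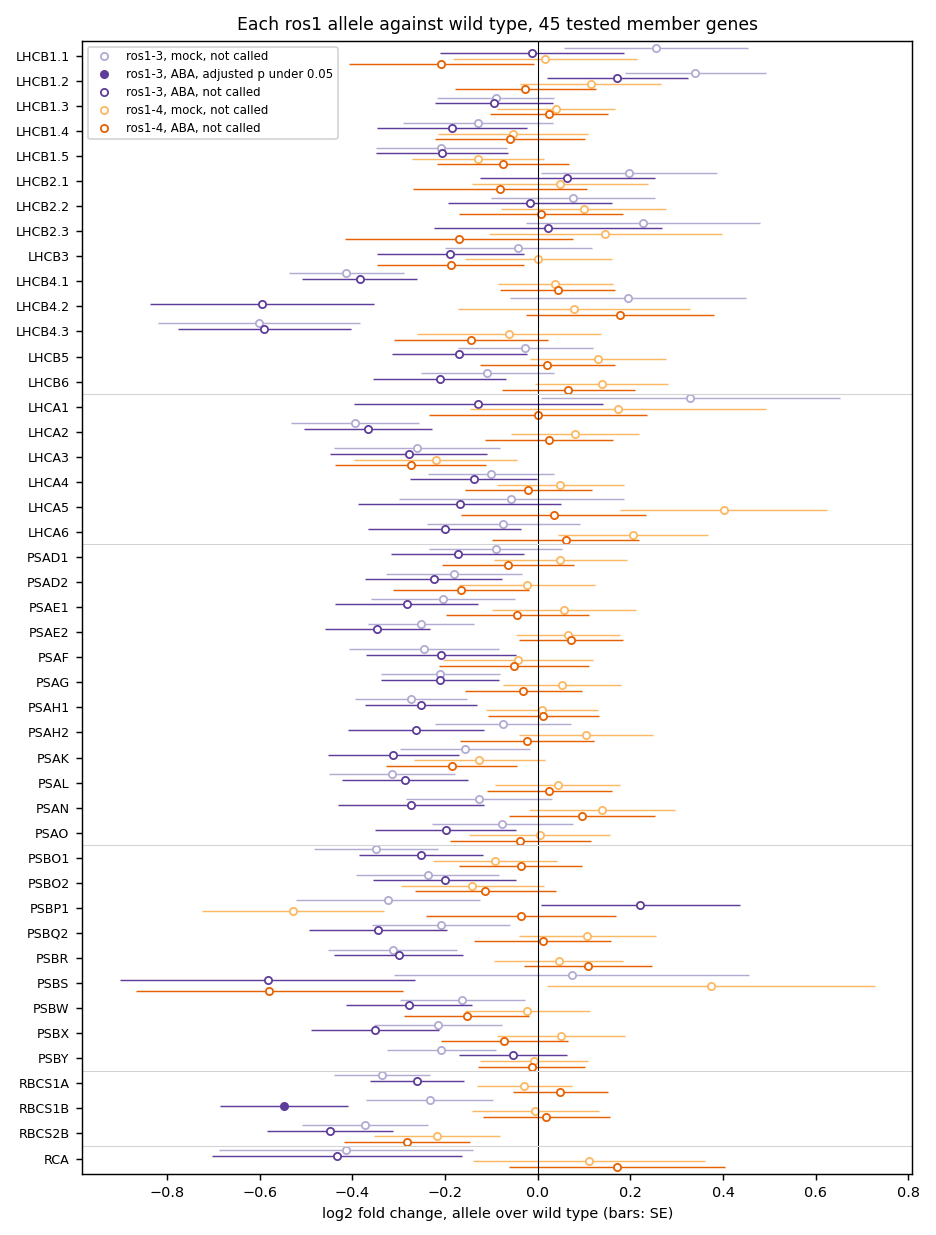
Log2 fold change of each allele over wild type for the 45 tested members (rows, grouped by complex) in mock and in ABA; bars are the SE, and the filled symbol marks an adjusted p under 0.05. The values of ros1-3 (purple) lie mostly below 0 in both treatments, those of ros1-4 (orange) on both sides of 0, and RBCS1B in ros1-3 under ABA is the one filled symbol.

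The ABA response of no member differed from wild type in ros1-3 or ros1-4 by the interaction test (edgeR), where no gene of the 15853 was called (0.0% in each). One member in each had an unadjusted p under 0.05, LHCB4.2 in ros1-3 (-0.79 ± 0.35) and PSBS in ros1-4 (-0.95 ± 0.46), both counted at a low level, against 4.69% and 3.29% of all genes at such a p. DESeq2 called no member and 10 and 1 of all genes. For the well-counted LHCB2.1, the differences from the wild type response were -0.13 ± 0.27 in both alleles. For RBCS2B they were -0.08 ± 0.19 and -0.07 ± 0.19. The LHCB4.2 difference in ros1-3, although larger than its error, had an edgeR adjusted p of 0.994. Differences well above the errors of LHCB2.1 and RBCS2B could thus also go uncalled.

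Within a group, the members varied together from library to library. In wild type mock, replicate 3 had the highest level of the group in 41 of 45 tested members and replicate 2 the lowest in 37. In wild type ABA, replicate 2 was the highest in 42. In ros1-4 mock, replicate 1 was the highest in 43 and replicate 3 the lowest in 43. The other 3 groups also had 1 library that was the lowest in 30 to 40 members. In wild type mock the summed photosystem II antenna ran from 74770 CPM to 99901 CPM, and the summed photosystem I subunits from 30039 CPM to 40058 CPM, whereas the summed RBCS genes ran from 12388 CPM to 13703 CPM.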

How the data were processed

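Per the submitters' processing notes, the authors worked with TAIR10 and with HTSeq 0.6.1, TopHat2 2.0.8, Trim Galore 0.2.8 and SAMtools, and they deposited raw read counts per transcript model. No source used here gives the strand setting, so antisense overlaps could add reads to a gene or set its reads aside as ambiguous. Between 36.7% and 44.5% of a file's total lay in 5 rows without a gene name, which entered neither library sizes nor tests.

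Counts of 40466 models were summed over 32399 loci. All 18 libraries entered 1 fit with 1 coefficient per group in edgeR 4.0.16 (R 4.3.3): TMM scaling, filterByExpr, the quasi-likelihood F test and Benjamini-Hochberg adjustment over 15853 genes, called under 0.05. The test had 12 residual degrees of freedom. CPM values are counts per 1000000, scaled by library total and TMM factor. SE was derived as |log2 fold change| over √F.

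Members and lists were chosen with earlier results of these data known. Values in every library are given for the called member with the smallest p per complex and direction in wild type, for members called in an allele against wild type or in an interaction, and for the RBCS and LHCB1 copies. Up to 3 called genes per other list and direction are named. LHCB4.2 and PSBS in the interaction, the other-list genes named for the alleles, the uncalled members named beside the tests, and the ratios of copies were chosen after their values were seen.

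Libraries with the same replicate number did not deviate together (45 pairs of libraries, correlations from -0.17 to 0.236, 1 pair over 0.1), so the numbers were not used as pairs. No libraries of a group held identical values. Alternatives were DESeq2 1.42.0, its size factors in edgeR, no filter, the replicate block, the share of multiply aligned reads as a covariate, other ways to combine models, a fit of only the groups compared, leaving out each library and, chosen after seeing the data, scaling without TMM factors. Promoter windows of 250 bases and 50-base windows of spliced transcripts were read from the RefSeq TAIR10.1 genome and annotation.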

Additional observations from a re-analysis of the deposited data

How the results depend on the processing

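All calls of members kept their sign under every alternative. With the share of multiply aligned reads as a covariate, 4 members in place of 16 rose in wild type. Without a filter on low counts, 14 rose in ros1-3 and 18 in ros1-4, and fitting only the groups compared gave 17 and 6. Without TMM factors, chosen after seeing the data, 4 in place of 2 members fell in ros1-4. Against wild type in mock, lower members of ros1-3 numbered 1 with no filter and 2 in DESeq2, in place of 0. In ABA they numbered 2 with no filter and 3 with only the groups compared, in place of 1. The log2 difference of the summed RBCS genes in wild type moved from -0.741 to -0.864 without TMM factors. Causes were not tested.

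With 1 library left out, the number of members that rose lay between 7 and 22 for wild type, 6 and 11 for ros1-3, and 6 and 22 for ros1-4. The libraries that moved it most are named in the report. Lower members of ros1-3 against wild type in ABA numbered 0 in each case. With the replicate number as a block, the number that rose was 14 for wild type, 9 for ros1-3 and 11 for ros1-4, and the single lower call of ros1-3 in ABA was lost (0).

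Wild type kept 7 of 19 calls under every alternative, ros1-3 kept 8 of 11 and ros1-4 kept 7 of 13. In all 3 genotypes these included LHCB1.1, LHCB1.4, LHCB2.1, RBCS1B and RBCS2B. Low counts limit the members at a few CPM: PSBS and LHCA1 had the largest standard errors of the ABA log2 fold change in each genotype, 0.31 to 0.39 and 0.28 to 0.31. Both are loci with several models, and how many of their reads were set aside as ambiguous was not measured.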
